A study of Mus musculus with 28 samples.

Results

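The 10 genes described here are the central genes of antigen presentation in 2 classes. Class I was represented by H2-K1, H2-D1, B2m, Tap1 and Nlrc5, and class II by H2-Aa, H2-Ab1, H2-Eb1, Cd74 and Ciita. They were taken by name, and all 10 were listed among the 29413 genes of the table of BMP-treated organoids and among the 55416 genes of the table of Tgfb-treated organoids. The organoids are three-dimensional epithelial cultures grown from crypts of the small intestine of wild-type C57BL/6 mice in ENR medium. Single recombinant ligands had been given at 500 ng/ml for 24 h. The first table held 4 untreated control samples, 4 samples with BMP2 and 3 samples each with BMP3, BMP4, BMP5 or BMP7. The second held 3 untreated and 3 Tgfb-treated samples of the same strain. The labels do not say whether the samples of a group came from separate mice, so p-values measure the spread between these samples, which may be technical.

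Class I molecules consist of a heavy chain, here H2-K1 or H2-D1, and the invariant light chain beta-2 microglobulin, encoded by B2m. They display peptides from inside the cell to CD8 T cells, and the transporter that Tap1 forms with Tap2 carries those peptides into the endoplasmic reticulum. Class II molecules are pairs of an alpha and a beta chain, such as those of H2-Aa and H2-Ab1, and they display peptides from endosomes to CD4 T cells. Their loading depends on the invariant chain Cd74. Nlrc5 and Ciita are related transactivators, the former known for class I promoters and the latter for class II promoters. Both are induced by interferon-gamma in many cell types, and enterocytes are known to carry class I molecules and, when stimulated, class II molecules.

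Both transactivators act on promoters through factors bound to short boxes, which the promoters of the 2 classes share. The stretches below are shown because they let the class I and class II genes be compared at these boxes. They are from RefSeq on GRCm38.p6, which held entries for 6 of the 10 genes and none for H2-Ab1, Cd74, Ciita or Nlrc5. Capitals mark TGACG, the core of the X2 box (TGATG in H2-Eb1), and ATTGG, the Y box. In B2m the capitals also mark a match to the interferon-stimulated response element, here GAAA, any 2 bases and GAAA. All stretches run 5′ to 3′ on the strand of the gene.
H2-K1, chr17:34000349-34000413, minus strand: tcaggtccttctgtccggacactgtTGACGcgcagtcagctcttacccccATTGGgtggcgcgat
H2-D1, chr17:35262968-35263032, plus strand: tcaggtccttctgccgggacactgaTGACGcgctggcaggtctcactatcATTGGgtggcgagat
B2m, chr2:122147542-122147648, plus strand: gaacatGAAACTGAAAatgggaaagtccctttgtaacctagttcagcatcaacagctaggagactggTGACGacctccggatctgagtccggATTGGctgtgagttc
Tap1, chr17:34187445-34187514, plus strand: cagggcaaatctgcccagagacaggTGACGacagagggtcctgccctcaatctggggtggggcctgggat
H2-Aa, chr17:34287857-34287922, minus strand: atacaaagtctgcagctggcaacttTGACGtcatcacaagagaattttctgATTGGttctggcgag
H2-Eb1, chr17:34305759-34305822, plus strand: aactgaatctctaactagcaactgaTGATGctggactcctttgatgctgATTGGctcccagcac

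The starts of both boxes lay 25 bases apart in H2-K1, H2-D1 and B2m, 26 apart in H2-Aa and 24 apart in H2-Eb1. Tap1 held TGACG without an ATTGG at that distance. In the 250 bases before the start of 32851 RefSeq promoters, on either strand, TGACG was found in 17.8% and ATTGG in 33.8%. TGACG followed by ATTGG with starts 24 to 26 bases apart was found in 0.189% (62 promoters), and TGANG followed by ATTGG at the same distance in 0.846%. That spacing was chosen after these 6 promoters had been read. The interferon-stimulated response element occurred in 2.98% of the promoters and, among the 6, in B2m. GTCTAGAC, a palindrome bound by Smad proteins, occurred in 0.167% and in none of the 6. A match is a description of letters and not of binding.

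Each library of the BMP table held 21358620 to 24784834 reads, recovered from the values. A single read corresponds to 0.826 to 1.28 of the normalized counts given below. After the authors' scaling the values summed to 19250832 to 20518942 in controls, 26268636 to 29004576 with BMP2 and 25574455 to 26979289 with BMP4. When every sample was set to the same total, the median log2 fold change of all genes moved from -0.03 to -0.48 for BMP2 and from 0.04 to -0.35 for BMP4, and it was -0.07 for BMP5 and -0.12 for BMP7. With BMP2, 5420 genes were called higher and 5657 lower as deposited, against 3627 and 7783 at the same total. With BMP4 the counts were 4964 and 4633 as deposited, against 3100 and 6864. For BMP7 they were 2833 and 1940, against 2587 and 2725, and for BMP5 2429 and 1455, against 2397 and 2413 after quantile normalization. The target genes Id1 and Smad7 rose with every ligand except BMP3 by limma, with log2 fold changes of 2.28 to 4.68 in the BMP table.

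The samples carried the markers of the labelled tissue. All 10 epithelial markers were present, and Epcam, an epithelial adhesion protein, ranged from 18700 to 95100 normalized counts. Of 18 markers of professional antigen-presenting and other immune cells, 4 reached a mean of 10, namely Cd68, Csf1r, Itgam and Lyz2. By limma BMP2 raised 2 and lowered 2 of these, beside 36.8% and 38.4% of all genes. BMP4 raised 1 (33.7%) and BMP5 raised 1 (16.5%), which was Csf1r, by 2.03 (adjusted p = 0.00181, limma). BMP7 raised 1 (19.2%) and lowered 1 (13.2%), and BMP3 changed none. Ptprc, the pan-leukocyte antigen, lay between 3.32 and 23.8. Itgax, Adgre1 and Flt3, which mark dendritic cells and macrophages, were at 0 in 12, 13 and 17 of 20 samples. The immune list summed to 122 to 142 in controls, 126 to 256 with BMP2, 126 to 173 with BMP3, 175 to 325 with BMP4, 130 to 159 with BMP5 and 114 to 150 with BMP7. Without Lyz2, which epithelium also makes, it summed to 92.6 to 103 in controls. That sum was 115 to 218 with BMP2, 162 to 278 with BMP4 and 113 to 140 with BMP5, all above the controls. With BMP3 (89.3 to 138) and BMP7 (99.1 to 132) it overlapped with them. Of 10 mesenchymal and endothelial markers, 8 were listed and Pdgfra lay between 0 and 37.5. Their sum, mostly Pecam1, was 590 to 787 in controls, 872 to 1100 with BMP2 and 876 to 1060 with BMP4. The epithelial markers summed to 128000 to 145000 in controls, 741000 to 960000 with BMP2, 301000 to 435000 with BMP4, 227000 to 386000 with BMP5 and 281000 to 406000 with BMP7. The part of these shifts in the results below was not tested. In bulk samples such as these, fewer cells of a type and less RNA per cell cannot be told apart.

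The heavy chain gene H2-D1 and the transactivator gene Nlrc5 rose with BMP2, BMP4, BMP5 and BMP7, and the other class I genes with fewer ligands. By limma with Benjamini-Hochberg adjustment, all 5 were called higher with BMP2 (B2m as deposited only, since its sign turned at the same total), where 36.8% of the 14746 genes tested were called higher, and all 5 with BMP4, against 33.7% of all genes. After quantile normalization H2-K1 was not called with BMP4 (0.07, adjusted p = 0.541, limma). With BMP5, 3 of 5 were called higher (H2-D1, B2m and Nlrc5, against 16.5% of all genes), and with BMP7, 2 of 5 (H2-D1 and Nlrc5, against 19.2%). These fits did not use the replicate number. With it as a block, all 5 were called higher with BMP5, against 21.3% of all genes. None of the 5 was called lower by limma, where 38.4% of all genes were called lower for BMP2, 31.4% for BMP4, 9.87% for BMP5 and 13.2% for BMP7. None was called with BMP3, where 0% of all genes were called. Nlrc5 is in each of these counts and reached the mean of 10 required for a test only through the treated groups, so its calls are no support for the count. These comparisons share the same 4 control samples. The median log2 fold change of the 5 genes was 1.05, 1.09, 0.51 and 0.26 for BMP2, BMP4, BMP5 and BMP7, beside -0.03, 0.04, -0.03 and -0.05 over all genes tested. These medians include Nlrc5, the highest of the 5 with each of these ligands.

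**Figure D1:**
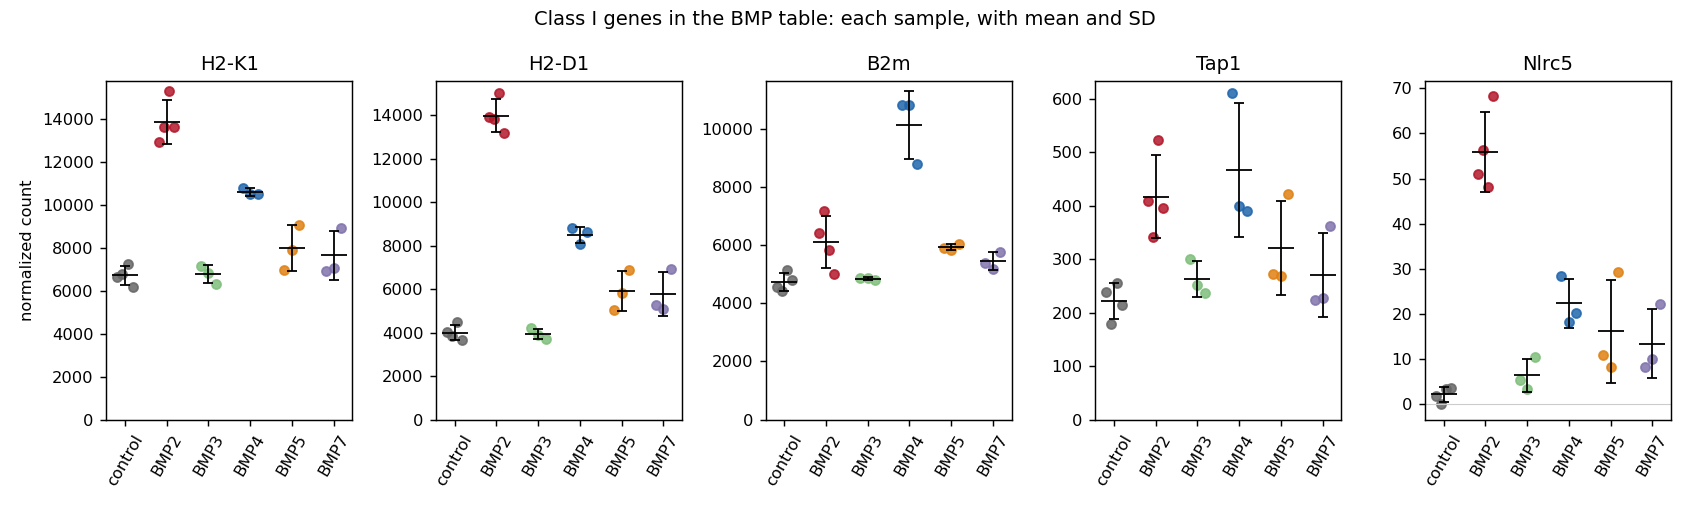
Normalized counts of the 5 class I genes (vertical axis, separate scale for each gene) in each of the 20 samples of the BMP table, by group (horizontal axis). Points are samples, bars the mean and SD (n = 4 for control and BMP2, n = 3 for the rest). All BMP2 and BMP4 samples lie above all controls for H2-K1, H2-D1, Tap1 and Nlrc5, and BMP3 samples lie at the level of controls for H2-K1, H2-D1 and B2m.

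H2-K1 encodes the K heavy chain. In controls it measured 6650, 6780, 6150 and 7240 normalized counts in replicates II, III, IV and VI. With BMP2 it measured 12900, 13600, 13600 and 15300 in the same order, and with BMP4 10800, 10500 and 10500 in replicates II, III and VI. Every BMP2 sample lay above every BMP4 sample, and every BMP4 sample above every control. With BMP5 the values were 6960, 7910 and 9070, with BMP7 6910, 7070 and 8930 in replicates II, III and VI, and with BMP3 7170, 6810 and 6330 in II, III and IV. These 3 groups overlapped with the controls. The log2 fold change was 1.05 ± 0.10 (SE) with BMP2 (adjusted p = 1.09e-08, limma) and 0.66 ± 0.10 with BMP4 (adjusted p = 1.79e-05, limma). At the same total these values were 0.59 and 0.26, both called, and after quantile normalization 0.40, called, and 0.07 (adjusted p = 0.541, limma). The changes of 0.25 for BMP5 (adjusted p = 0.091), 0.18 for BMP7 (0.195) and 0.01 for BMP3 (1) did not pass limma's test without a replicate block. With the replicate number as a block, the BMP5 change was 0.21 and was called (adjusted p = 0.0369, limma).

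H2-D1 encodes the D heavy chain and was the member called in all of BMP2, BMP4, BMP5, BMP7 and Tgfb. Controls held 4030, 3820, 3650 and 4480 normalized counts in replicates II, III, IV and VI, and BMP2 samples 13900, 13800, 13200 and 15000. BMP4 samples held 8790, 8090 and 8630, BMP5 samples 5040, 5840 and 6880, and BMP7 samples 5280, 5070 and 6930 in replicates II, III and VI. The samples with these 4 ligands all lay above all controls, and in BMP5 and BMP7 replicate VI was the highest. BMP3 samples held 4190, 3900 and 3720 in II, III and IV, within the range of the controls. The mean was 3.5 times the control mean with BMP2, and the log2 fold change was 1.81 ± 0.11 (SE, adjusted p = 2.16e-11, limma). It was 1.09 ± 0.11 for BMP4 (adjusted p = 1.33e-07), 0.56 ± 0.11 for BMP5 (0.00119) and 0.52 ± 0.11 for BMP7 (0.00181), all by limma. The BMP2 value was 1.20 after quantile normalization, and the BMP4 value 0.69 at the same total and 0.60 after quantile normalization, all called.

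B2m, the light chain, followed a different order from the heavy chains. Control values were 4550, 4410, 4800 and 5130 normalized counts in replicates II, III, IV and VI. BMP4 samples stood highest at 10800, 10800 and 8780 in II, III and VI, while BMP2 samples held 6410, 7160, 5010 and 5830 in II, III, IV and VI. BMP2 replicate IV lay within the range of the controls. BMP5 samples held 5910, 5830 and 6050, BMP7 samples 5380, 5190 and 5770, and BMP3 samples 4870, 4880 and 4790. All BMP5 and BMP7 samples lay above the highest control, 5130, and BMP3 samples lay within the controls. With BMP4 the log2 fold change was 1.10 ± 0.10 (SE, adjusted p = 4.13e-08, limma), and 0.70 at the same total and 0.55 after quantile normalization, both called. With BMP2 it was 0.36 ± 0.10 as deposited (adjusted p = 0.00239, limma), but -0.10 at the same total (adjusted p = 0.352) and -0.17 after quantile normalization (0.0904), so no direction can be given for B2m with BMP2. With BMP5 it was 0.33 ± 0.10 (adjusted p = 0.0245, limma). That call was lost without BMP5 replicate III (adjusted p = 0.0625), BMP5 replicate VI (0.0836), control replicate II (0.055) or control replicate III (0.0695), and without a filter on low genes (0.0505). With BMP7 it was 0.21 (adjusted p = 0.137) and with BMP3 0.04 (1), neither past limma's threshold.

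Tap1 encodes a subunit of the peptide transporter. It measured 239, 178, 215 and 256 normalized counts in control replicates II, III, IV and VI, and 409, 341, 396 and 524 with BMP2. With BMP4 it measured 612, 400 and 391 in II, III and VI. All samples of both ligands lay above the highest control, with no order between them. BMP5 samples held 272, 269 and 422, BMP7 samples 223, 228 and 362, and BMP3 samples 301, 252 and 237. In BMP5 and BMP7 replicate VI stood apart from the other 2. The log2 fold change was 0.90 ± 0.20 (SE) with BMP2 (adjusted p = 0.000433, limma) and 1.05 ± 0.21 with BMP4 (0.000279). At the same total these were 0.45 and 0.65, both called. It was 0.51 with BMP5 (adjusted p = 0.0882), 0.26 with BMP7 (0.367) and 0.25 with BMP3 (1), which did not pass limma's threshold without a replicate block. With the replicate number as a block, the BMP5 change was 0.47 and was called (adjusted p = 0.0396, limma).

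Nlrc5, the class I transactivator, was scarce in controls, with 1.78, 0, 3.55 and 3.3 normalized counts in replicates II, III, IV and VI, from 0 to 4 reads. With BMP2 it measured 51.1, 56.3, 68.2 and 48.1, from 38 to 58 reads. BMP4 samples held 28.4, 18.3 and 20.3, BMP5 samples 10.8, 8.34 and 29.2, and BMP7 samples 8.17, 10.0 and 22.1 in II, III and VI. All of these lay above every control, and the BMP2 samples above all others. BMP3 samples held 5.34, 3.38 and 10.5 in II, III and IV, overlapping with controls. The group mean was 25.9, 10.3, 7.45 and 6.2 times the control mean for BMP2, BMP4, BMP5 and BMP7. On the log2 scale with 1 added to each value, the changes were 4.38 ± 0.48 (SE), 3.08 ± 0.52, 2.46 ± 0.52 and 2.29 ± 0.52, with adjusted p of 1.27e-07, 4.09e-05, 0.00167 and 0.00234 by limma. Their size depends on what is added: for BMP2 it was 5.49 with 0.1 added and 2.44 with 10 added. Nlrc5 reached the mean of 10 required for a test only through the treated groups, so these p-values are no support for a rise. 

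Among class I genes with BMP3, limma called 0 of 5, and 1 of 5 (Nlrc5, log2 fold change 1.33, unadjusted p = 0.0195) had an unadjusted p under 0.05. By edgeR and by DESeq2 on recovered reads the count was 0 as well. The 95% intervals of the change with BMP3 ran from -0.20 to 0.23 for H2-K1, from -0.26 to 0.22 for H2-D1 and from -0.18 to 0.26 for B2m.

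For BMP5 the replicate numbers paired the samples with those of the controls. With the replicate number as a block, all 5 class I genes were called higher with BMP5, where that fit called 21.3% of all genes higher (38.9% in either direction), H2-K1 at 0.21 (adjusted p = 0.0369, limma) and Tap1 at 0.47 (0.0396) in addition to the other 3. Nlrc5, which reached the filter only through the treated groups, is no support for that count. Without BMP5 replicate II, H2-K1 was also called, at 0.34 (adjusted p = 0.0277, limma).

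BMP2 and BMP4 were then compared directly, to see whether the 2 ligands differed in the class I genes they raised. By limma 4 of 5 members differed, 3 higher and 1 lower with BMP2, where 33.4% of all genes were called in each direction. Nlrc5, which reached the filter only through the treated groups, is among the 3 and is no support for the count. H2-D1 was higher with BMP2 by 0.72 ± 0.11 on the log2 scale (SE, adjusted p = 1.95e-05), H2-K1 by 0.38 ± 0.10 (0.00325) and Nlrc5 by 1.30 ± 0.52 (0.0346). B2m was lower with BMP2, at -0.74 ± 0.10 (adjusted p = 4.74e-06, limma), and stayed between -0.84 and -0.65 under every alternative, including the same total and quantile normalization. The Nlrc5 difference lost its call without BMP2 replicate III (adjusted p = 0.0583), BMP2 replicate IV (0.0738), BMP4 replicate III (0.1) or BMP4 replicate VI (0.0813). It also missed the threshold with 0.1 added in place of 1 (adjusted p = 0.203), without a filter (0.0625) and at the same total (0.0502). For Tap1 the difference was -0.15, with a 95% interval from -0.60 to 0.30 (adjusted p = 0.56, limma).

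BMP5 and BMP7 were not told apart by any class I gene. By limma 0 of 5 were called, beside 0.0136% of all genes (0.00678% in each direction), and 0 of 5 had an unadjusted p under 0.05; edgeR and DESeq2 also called 0. Differences ranged from 0.04 for H2-D1 (95% interval from -0.21 to 0.30) to 0.25 for Tap1 (from -0.23 to 0.73). Among all 5 ligands, limma's F-test called all 5 class I genes, with adjusted p from 4.82e-10 for H2-D1 to 0.0062 for Tap1, beside 84.1% of all genes. Nlrc5 is again no support for that count. At the same total the adjusted p of Tap1 was 0.276.

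Ratios within a sample do not depend on its scaling, and 2 were computed after the values above had been seen. They are given as a description, without a test. H2-D1 over H2-K1 was 0.606, 0.563, 0.593 and 0.619 in control replicates II, III, IV and VI, and 1.08, 1.01, 0.971 and 0.98 with BMP2. It was 0.77 to 0.822 with BMP4, 0.724 to 0.759 with BMP5 and 0.717 to 0.776 with BMP7, all above every control, and 0.573 to 0.588 with BMP3, within the controls. B2m over the sum of both heavy chains was 0.416 to 0.49 in controls, 0.187 to 0.261 with BMP2 and 0.459 to 0.581 with BMP4. Thus light and heavy chain transcripts changed by unequal amounts with BMP2, where every sample lay below every control, while BMP4 samples overlapped with controls. These ratios rest on gene counts and not on length, so their absolute size says nothing of the balance of the chains.

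**Figure D2:**
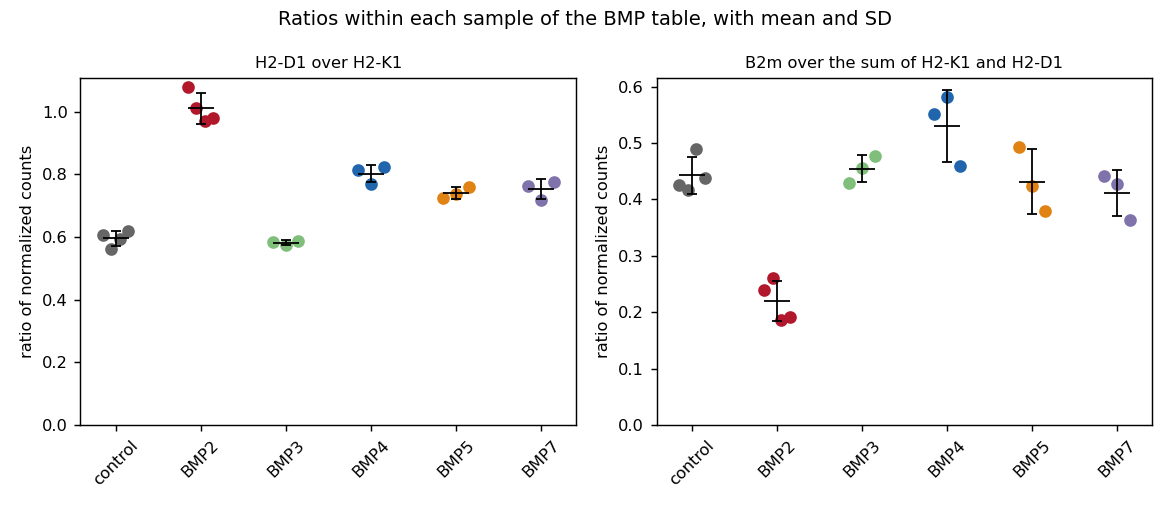
Ratios of normalized counts (vertical axes, starting at 0) within each sample of the BMP table by group (horizontal axis). Points are samples, bars the mean and SD. H2-D1 over H2-K1 (left) is 0.563 to 0.619 in controls and 0.971 to 1.08 with BMP2. B2m over the sum of H2-K1 and H2-D1 (right) is lowest with BMP2, at 0.187 to 0.261.

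Heavy chain genes resemble other class I genes, so reads may be divided among copies. In GENCODE vM21 transcripts, 3.1% of the 75-base windows of H2-K1 also occurred in other genes, most of them in H2-Q10, and 5.4% of those of H2-D1, most of them in H2-Q1. The other 8 members shared 0%. How the authors' counting divided shared reads is not given in the sources used here.

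Class II transcripts were scarce in the organoids, and without a replicate block no ligand of the BMP table changed a tested class II member by limma. With the block, Cd74 rose with BMP5. Of the 5 genes, Cd74 and H2-Ab1 reached the mean of 10 required for a test, whereas H2-Aa, H2-Eb1 and Ciita did not. The summed class II members came to 47.9 to 82.5 normalized counts in controls and 14800 to 17100 for class I, a comparison of abundance in reads and not per length. Called class II members numbered 0 of 2 with BMP2, where 75.1% of all genes were called in either direction, 0 of 2 with BMP4 (65.1%), 0 of 2 with BMP5 (26.3%), 0 of 2 with BMP7 (32.4%) and 0 of 2 with BMP3 (0%). Cd74 with BMP5 was the 1 case with an unadjusted p under 0.05. EdgeR called 0 with every ligand, and DESeq2 called 1, H2-Ab1 with BMP4.

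**Figure D3:**
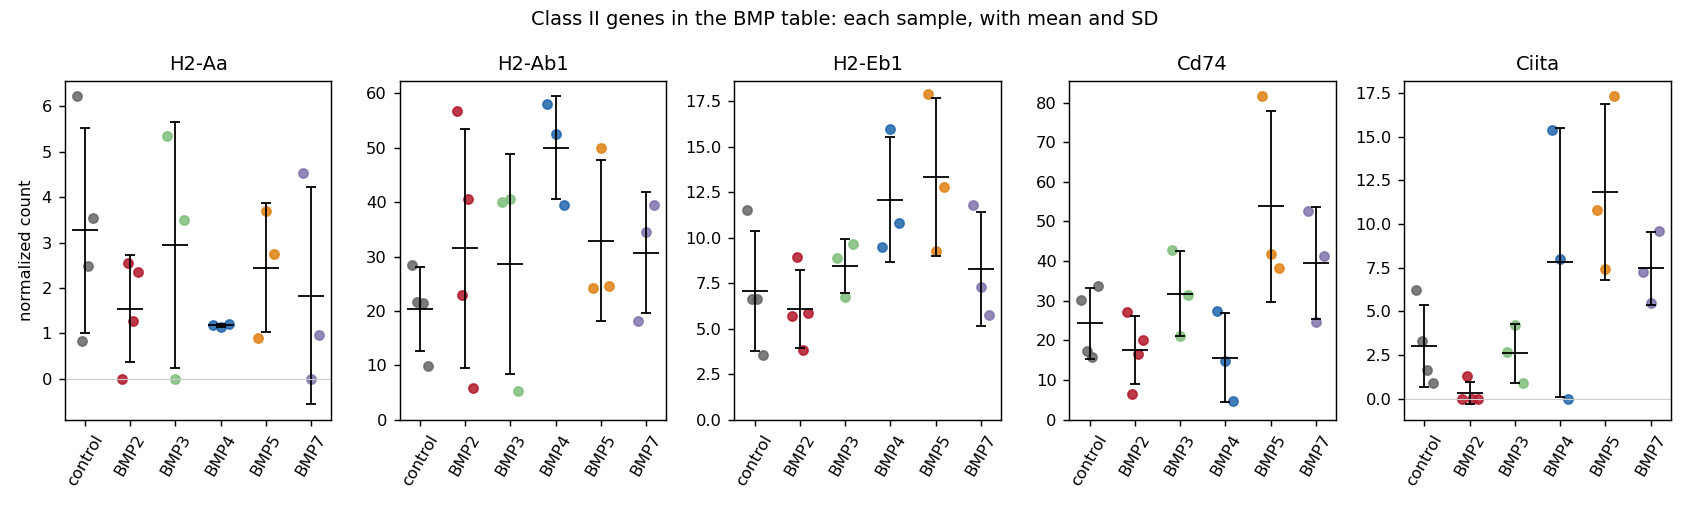
Normalized counts of the 5 class II genes (vertical axis, separate scale for each gene) in each of the 20 samples of the BMP table, by group (horizontal axis). Points are samples, bars the mean and SD. No value exceeds 81.6, and for Cd74 the 3 BMP5 samples lie above all 4 controls.

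Ciita, the class II transactivator, had 6.22, 3.32, 0.887 and 1.65 normalized counts in control replicates II, III, IV and VI. With BMP2 it was at 0, 1.28, 0 and 0, which is 1 read in 4 samples. With BMP5 it measured 10.8, 7.41 and 17.3, and with BMP7 7.26, 5.47 and 9.62 in II, III and VI. All BMP5 samples lay above all controls, and BMP7 overlapped with them. BMP4 samples held 15.4, 7.99 and 0 and BMP3 samples 2.67, 4.22 and 0.875, both overlapping with controls. When genes were tested without a filter, Ciita was lower with BMP2 than with BMP4 by limma, at -2.10 ± 0.72 (SE, adjusted p = 0.0249), and differed among the 5 ligands (F-test, adjusted p = 0.00417). Against control it was not called with BMP2 (-1.52, adjusted p = 0.0726), BMP5 (1.79, 0.129), BMP7 (1.23, 0.312), BMP4 (0.58, 0.613) or BMP3 (-0.10, 1.0).

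Cd74, the invariant chain, measured 30.2, 17.4, 33.7 and 15.7 normalized counts in control replicates II, III, IV and VI. BMP5 samples stood highest, with 81.6, 41.7 and 38.3, followed by BMP7 with 52.6, 24.6 and 41.4 in II, III and VI. BMP2 samples held 27.2, 6.39, 20 and 16.5, BMP4 samples 27.3, 14.8 and 4.79, and BMP3 samples 42.7, 21.1 and 31.5. Apart from BMP5, whose samples all exceeded the highest control, every group overlapped with the controls. The log2 fold change was 1.11 ± 0.51 (SE) with BMP5 (adjusted p = 0.124, limma). With the replicate number as a block it was 1.23 and was called (adjusted p = 0.0126, limma). The values of 0.69 with BMP7 (adjusted p = 0.321), -0.53 with BMP2 (0.323), -0.81 with BMP4 (0.179) and 0.39 with BMP3 (1) did not pass limma's threshold. Without BMP4 replicate II the BMP4 value was -1.33 and passed it (adjusted p = 0.0405). Cd74 differed among the 5 ligands by limma's F-test (adjusted p = 0.0122). The immune marker sum was 130 to 159 with BMP5 and 122 to 142 in controls, which overlap. Without Lyz2, which epithelium also makes, the sum was 113 to 140 with BMP5 and 92.6 to 103 in controls, without overlap. The part of this shift in the Cd74 values was not tested.

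H2-Ab1, the beta chain of the A molecule, measured 28.4, 21.6, 9.76 and 21.5 normalized counts in control replicates II, III, IV and VI. BMP4 samples held 58.1, 52.5 and 39.5, all above the controls, and BMP5 samples 24.2, 50 and 24.6. BMP2 samples ranged from 5.88 in replicate IV through 23 in III and 40.5 in VI to 56.8 in II. The low values of BMP2 and of BMP3 (40, 40.6 and 5.25 in II, III and IV) were both in replicate IV, as was the lowest control. BMP7 samples held 18.1, 34.6 and 39.5. The change with BMP4 was 1.33 ± 0.67 (SE) on the log2 scale (adjusted p = 0.0897, limma). It passed the threshold without BMP2 replicate IV (adjusted p = 0.0453), without BMP3 replicate IV (0.0421) and by DESeq2 (1.31, 0.046). The immune marker sum with BMP4, 175 to 325, also lay above that of controls, and its part in this result was not tested. With the other ligands the change was 0.14 to 0.68, with no call by limma, and among the 5 ligands the F-test gave an adjusted p of 0.538.

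H2-Eb1, the beta chain of the E molecule, and H2-Aa, the alpha chain of the A molecule, stayed below the filter. H2-Eb1 measured 11.5, 6.64, 3.55 and 6.61 normalized counts in control replicates II, III, IV and VI. It was highest with BMP5 (17.9, 9.26 and 12.8) and BMP4 (9.48, 16 and 10.8), and both groups overlapped with the controls. The remaining ligands gave 3.8 to 11.8. H2-Aa lay between 0 and 6.22 in all 20 samples, which is 0 to 7 reads, with controls at 6.22, 0.83, 3.55 and 2.48 in II, III, IV and VI. Neither gene was called with any ligand when tested without a filter by limma, and the smallest adjusted p was 0.183 for H2-Eb1 with BMP4.

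Between BMP2 and BMP4, 0 of 2 class II members were called by limma, beside 66.8% of all genes, 0 had an unadjusted p under 0.05, and edgeR and DESeq2 called 0. H2-Ab1 differed by -1.01, with a 95% interval from -2.41 to 0.40, and Cd74 by 0.28, from -0.80 to 1.36. Between BMP5 and BMP7 all of these counts were also 0.

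**Figure D4:**
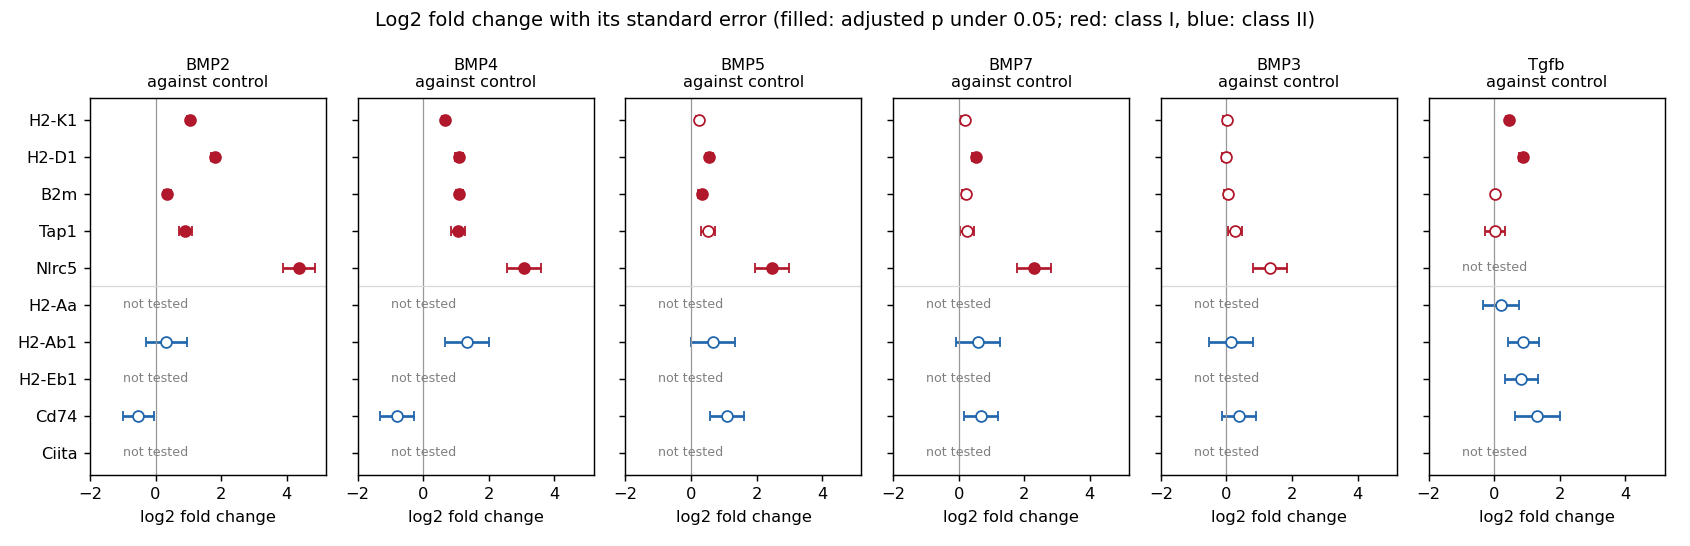
Log2 fold change (horizontal axis, values with 1 added) of the 10 genes (vertical axis) for each ligand against the controls of its table, with bars of 1 standard error. Class I is red, class II blue, filled points have an adjusted p under 0.05 by limma, and genes under the filter are marked as not tested. Filled points are all class I, and H2-D1 is filled with every ligand except BMP3; the B2m point for BMP2 turns to -0.10 at the same total and -0.17 after quantile normalization.

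In the separate table of Tgfb-treated organoids, the heavy chains rose while B2m and Tap1 were not called. Values there are TPM, transcript abundance scaled by length to a fixed total per sample, which allows levels of different genes to be compared. The depth of these samples is unknown. By limma 2 of the 4 class I members tested were called higher, H2-D1 and H2-K1, where 27.4% of the 12959 genes tested were called higher. Without a replicate block, 0 of the 4 class II members tested were called, beside 56.7% of all genes in either direction (29.3% lower), and 0 had an unadjusted p under 0.05. No count test could be run on TPM.

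H2-K1 measured 426, 449 and 445 TPM in control replicates I, II and III and 561, 567 and 678 with Tgfb. H2-D1 measured 94, 106 and 113 TPM in controls and 173, 185 and 217 with Tgfb. Neither gene's groups overlapped. The log2 fold change was 0.45 ± 0.09 (SE) for H2-K1 (adjusted p = 0.00729, limma) and 0.87 ± 0.11 for H2-D1 (0.000891). B2m held 435, 477 and 492 TPM in controls and 464, 477 and 486 with Tgfb, all within the control range. Its change was 0.02, with a 95% interval from -0.15 to 0.20 (adjusted p = 0.796, limma), and -0.05 after upper-quartile scaling. B2m over the sum of both heavy chains was 0.837, 0.859 and 0.882 in controls and 0.632, 0.634 and 0.543 with Tgfb, and H2-D1 over H2-K1 rose from 0.221 to 0.254 in controls to 0.308 to 0.326, without overlap in either ratio.

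Tap1 held 4.05, 4.06 and 8.12 TPM in control replicates I, II and III and 4.2, 4.58 and 7.66 with Tgfb. Replicate III was the highest in both groups, and the change of 0.04 had a 95% interval from -0.70 to 0.77 (adjusted p = 0.93, limma). Nlrc5 lay below the filter of 1 TPM, with 0.125, 0.0746 and 0.0289 TPM in controls and 0.234, 0.136 and 0.602 with Tgfb. All Tgfb samples exceeded all controls. Tested without a filter, the change was 0.28 with 1 TPM added to each value (adjusted p = 0.186, limma).

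Every class II gene was lowest in replicate I, in the control as well as in the Tgfb group. Cd74 measured 3.81, 16.3 and 22.8 TPM in control replicates I, II and III and 15.2, 41.5 and 43.7 with Tgfb. H2-Ab1 measured 1.93, 4.89 and 7.52 TPM in controls and 4.87, 13.2 and 10.3 with Tgfb. For both genes replicate I with Tgfb lay within the range of the controls, and replicates II and III with Tgfb lay above it. H2-Eb1 measured 0.42, 2.22 and 3.47 TPM in controls and 1.92, 5.65 and 4.95 with Tgfb, and H2-Aa 0.175, 1.13 and 3.04 against 0.494, 1.66 and 2.96. The log2 fold changes were 1.32 for Cd74 (adjusted p = 0.147, limma), 0.89 for H2-Ab1 (0.16), 0.83 for H2-Eb1 (0.207) and 0.21 for H2-Aa (0.764). With the replicate number as a block, limma called Cd74 (adjusted p = 0.00569), H2-Ab1 (0.0215) and H2-Eb1 (0.0227) higher, and H2-Aa was not called. Over all genes, however, the numbers did not pair these samples. Ciita held 0.0668, 0.167 and 0.176 TPM in controls and 0.289, 0.877 and 0.498 with Tgfb, without overlap. It lay under the filter, and its change without one was 0.44 with 1 TPM added (adjusted p = 0.0747, limma). The immune list summed to 3.69 to 4.32 TPM in controls and 4.5 to 5.3 with Tgfb, with Adgre1, Flt3 and Ms4a1 at 0 in all 6 samples, and its part in the class II values was not tested.

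The order of levels in control organoids, per length, began with B2m at 468 ± 29.6 TPM (SD, n = 3) and H2-K1 at 440 ± 12.3, which overlapped. H2-D1 followed at 105 ± 9.74 and overlapped with neither neighbour. Next came Cd74 at 14.3 ± 9.67, Tap1 at 5.41 ± 2.35, H2-Ab1 at 4.78 ± 2.79, H2-Eb1 at 2.04 ± 1.54 and H2-Aa at 1.45 ± 1.46. Each of these overlapped with the next in the list. The transactivators stood last, Ciita at 0.137 ± 0.0606 and Nlrc5 at 0.0763 ± 0.0482, and overlapped with each other.

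**Figure D5:**
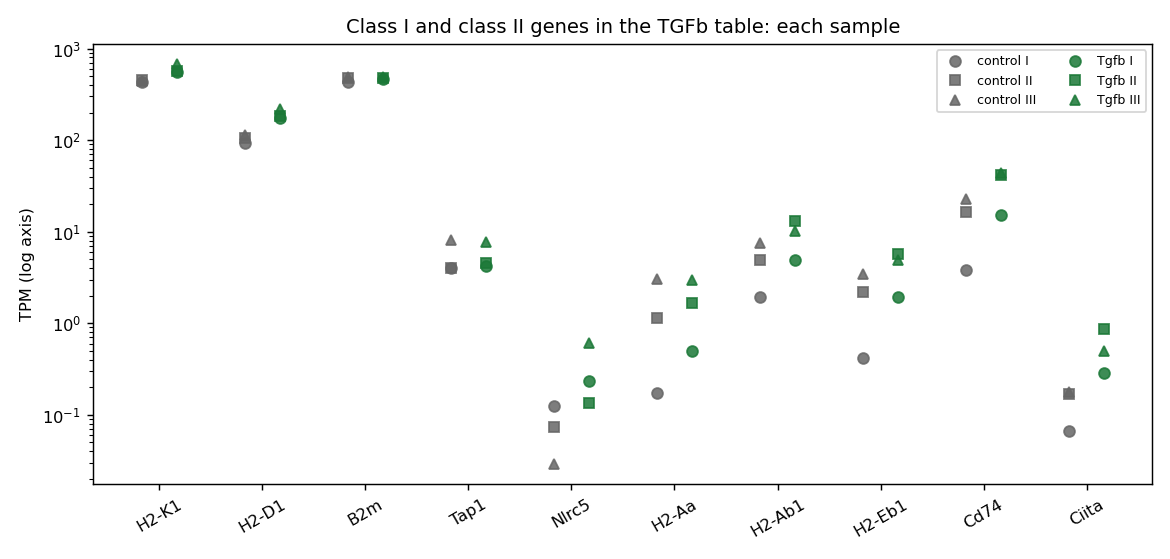
TPM on a logarithmic axis (vertical) of the 10 genes (horizontal axis) in the 3 control (grey) and 3 Tgfb (green) samples, with symbols for the replicate number. H2-K1 and H2-D1 lie higher with Tgfb without overlap, B2m does not, and replicate I is the lowest of its group for every class II gene.

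The other genes of the pathway were followed in fixed lists, beside the share of all genes called. That share was 36.8% higher and 38.4% lower for BMP2, 33.7% and 31.4% for BMP4, 16.5% and 9.87% for BMP5, 19.2% and 13.2% for BMP7 and 27.4% and 29.3% for Tgfb. List counts near these shares say nothing particular of the list. For each ligand at most the 2 raised and 2 lowered genes of a list with the smallest adjusted p are named. A ligand not given for a named gene may therefore have changed that gene as well. Of 12 genes that load class I molecules or supply their peptides, BMP2 raised 5 and lowered 6 by limma, BMP4 raised 6 and lowered 1, BMP5 raised 4 and lowered 1, BMP7 raised 4, and Tgfb raised 3 and lowered 2. BMP3 changed none of this list or of the lists below, none had an unadjusted p under 0.05 with it, and edgeR and DESeq2 called 0. The list's median log2 fold change was -0.05, 0.28, 0.12, 0.03 and 0.10 with BMP2, BMP4, BMP5, BMP7 and Tgfb. Tapbp, or tapasin, which holds empty class I molecules at the transporter, rose with each of these 5, by 2.10, 1.11, 0.85, 0.86 and 1.31 in that order. Tapbpl, its relative, rose by 0.98 with BMP2, 0.90 with BMP4 and 0.61 with Tgfb, and Psmb8, an immunoproteasome subunit, by 1.05 with BMP5 and 0.65 with BMP7. Erap1, which trims peptides, changed by -1.41 with BMP2, -0.82 with BMP4 and -0.29 with Tgfb. Canx, the chaperone calnexin, changed by -0.77 with BMP2, -0.22 with BMP5 and -0.45 with Tgfb. These directions held under both other scalings. The raised count with BMP7 turned on single libraries: 1 gene was called higher without BMP7 replicate VI or control replicate III, and 2 without BMP7 replicate II or control replicates II or VI. With BMP5, 2 were higher without BMP5 replicate VI, and Canx was not called without BMP5 replicate III or VI, control replicate II, III or VI, or BMP3 replicate II or III. With Tgfb, 1 was lower in place of 2 without control replicate I or II or Tgfb replicate I or II. The BMP4 counts became 3 higher and 4 lower at the same total, and 5 and 5 after quantile normalization, BMP2 raised 3 in place of 5 at the same total, and the BMP7 counts were 2 and 2 at the same total and 4 and 3 after quantile normalization.

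Non-classical class I genes encode related heavy chains of narrower function. Of 13 tested, BMP2 raised 4 and lowered 8, and BMP4 raised 8 and lowered 2. BMP5 raised 3 and lowered 1, BMP7 raised 2 and lowered 1, and of 11 tested in its table Tgfb raised 3 and lowered 6. Between BMP2 and BMP4, 8 of 13 differed, beside 66.8% of all genes. At the same total 2 in place of 3 were raised with BMP5 and 1 in place of 2 with BMP7, where H2-T22 was not called (adjusted p = 0.0507, limma). With the replicate number as a block, 5 in place of 3 were called with BMP7, beside 45.4% of all genes in that fit. H2-T23, the Qa-1 antigen, rose with each, by 2.59, 1.76, 0.95, 0.86 and 1.24 with BMP2, BMP4, BMP5, BMP7 and Tgfb. H2-T22 rose by 1.56 with BMP2. The lowered count with BMP2 was 5 without BMP2 replicate III or IV or control replicate VI. The raised count was 1 with BMP5 without replicate VI, 1 with BMP7 without BMP7 replicate III or VI or control replicate II, III or IV, and 1 with Tgfb without control replicate I or II. H2-T3, the thymus leukaemia antigen of intestinal epithelium, measured 259 to 425 normalized counts in controls, 8.95 to 35.4 with BMP2 and 1290 to 1530 with BMP4, with no overlap. Its log2 fold change was -4.34, 2.07, -1.14, -1.05 and -1.91 for BMP2, BMP4, BMP5, BMP7 and Tgfb, each called by limma, and -6.41 between BMP2 and BMP4. With BMP5 or BMP7 the lowered count of 1 was 0 without BMP5 replicate III, or without BMP7 replicate II or control replicate VI. Without control replicate IV it was 2 with BMP5 and 3 with BMP7, and without BMP7 replicate III it was 2 with BMP7. H2-Q1 rose by 3.35 with BMP4, and H2-Q7 changed by -2.27 with BMP2. H2-M3 changed by -1.35 with BMP4 and Cd1d1, which presents lipids, by -2.18. All directions named here held at the same total and after quantile normalization. Shared 75-base windows made up 10.9% for H2-Q1, 17% for H2-Q7, 18.5% for H2-T22, 5.91% for H2-T23 and 14.2% for Cd1d1, so their values are less certain, and 0% for H2-T3.

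Of 13 genes of class II loading and lysosomal processing, 7 were tested in the BMP table. BMP2 raised 3 and lowered 2, BMP4 raised 5, BMP5 and BMP7 each raised 2 and lowered 1, and Tgfb raised 2 and lowered 1 of 8. The protease cathepsin L, encoded by Ctsl, rose by 3.58, 1.30, 1.43 and 2.19 for BMP2, BMP5, BMP7 and Tgfb. Cathepsin D, encoded by Ctsd, rose by 2.08, 1.22, 0.50, 0.53 and 0.91 for BMP2, BMP4, BMP5, BMP7 and Tgfb. Ifi30, a lysosomal thiol reductase, changed by -1.21, -0.39, -0.44 and -0.69 for BMP2, BMP5, BMP7 and Tgfb. The call with BMP5 was lost without BMP5 replicate III or VI or control replicate III or VI, and that with BMP7 without BMP7 replicate II. Without Tgfb replicate II, 2 of this list were lower with Tgfb. Ctss, the cathepsin that cleaves the invariant chain, changed by -1.26 with BMP2. With BMP4 the lowest change among the 7 genes tested was 0.05. Between BMP2 and BMP4, Ifi30 differed by -1.78 and Ctss by -2.13, both called by limma, beside 66.8% of all genes. Of the 7 factors that bind the X and Y boxes, BMP2 raised 1 and lowered 2, BMP4 raised 1 and lowered 4, BMP5 and BMP7 changed none, and Tgfb raised 1 and lowered 2. For BMP5 and BMP7, edgeR and DESeq2 also called 0 and none had an unadjusted p under 0.05, while 1 was called with BMP7 with the replicate number as a block. Rfxank, a subunit of the RFX complex on the X box, rose by 1.63 with BMP4 and 0.38 with Tgfb, and by 0.56 with BMP2, which was 0.10 and not called at the same total. Nfya and Creb1 changed by -1.20 and -0.83 with BMP4. The Tgfb call of Rfxank was lost without control replicate I or II or Tgfb replicate III, and of the 2 genes lowered, 1 was called without control replicate II or III. With BMP2, 1 in place of 2 was lower without BMP2 replicate II, IV or VI or control replicate II, III or VI, and at the same total 4 were. The raised count was 2 in place of 1 with BMP2 without BMP2 replicate II and with BMP4 without BMP4 replicate III.

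Among genes of the interferon-gamma pathway, those called were higher with each ligand except BMP3, where none was called. Ifng itself was listed at 0 in all 6 samples of the TGFb table and had no row in the BMP table. Of 11 genes tested, BMP2 raised 11, BMP4 10, BMP5 7 and BMP7 6, and Tgfb raised 7 of 10, and none was called lower. Without BMP5 replicate VI, 4 in place of 7 were higher with BMP5. At the same total the counts were 9, 5, 7 and 5 for the BMP ligands, and after quantile normalization BMP4 raised 8 and lowered 1. The median log2 fold change of the list was 1.48, 1.22, 0.64, 0.63 and 0.75 for BMP2, BMP4, BMP5, BMP7 and Tgfb, beside -0.03, 0.04, -0.03, -0.05 and -0.04 over all genes. Ifngr2, a receptor chain, rose by 1.48, 1.46, 0.97, 1.13 and 1.43 for BMP2, BMP4, BMP5, BMP7 and Tgfb, and the kinase Jak2 by 1.82, 1.33, 0.52, 0.63 and 1.03 in that order.

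Signals that accompany antigen presentation made up the last list, of which 6 of 9 genes were tested in the BMP table. BMP2 and BMP4 each raised 3 and lowered 2, BMP5 and BMP7 each raised 3, and Tgfb raised 2 and lowered 2 of 5. At the same total BMP7 raised 2 and BMP4 raised 2, and BMP2 lowered 3. With the replicate number as a block, 5 in place of 3 were called with BMP5. Cd40, a costimulatory receptor, rose by 3.05, 1.84, 1.64 and 2.18 for BMP2, BMP5, BMP7 and Tgfb. Cd276, a checkpoint ligand, rose by 2.86, 1.5, 1.54 and 2.27 for BMP2, BMP5, BMP7 and Tgfb, and changed by -1.15 with BMP4. Btnl1 and Btnl6, butyrophilin-like proteins of enterocytes that engage gamma-delta T cells, rose by 2.26 and 3.05 with BMP4. They changed by -2.38 and -0.72 with BMP2 and by -0.69 and -0.73 with Tgfb, and the change of Btnl6 with BMP2 was not called after quantile normalization (-0.38). The lowered count of 2 was 1 with BMP2 without BMP2 replicate II or III or control replicate IV or VI, 1 with BMP4 without BMP4 replicate II or VI or control replicate III, and 1 with Tgfb without control replicate III or Tgfb replicate I or II. With BMP5 or BMP7, 1 gene was lower without that ligand's replicate VI.

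Over the 20 samples of the BMP table, the genes most like Tap1 in log2 value were Cmtr1 (Pearson's r = 0.923), Tap2 (0.920) and Nmi (0.916), of 11852 genes compared. Tap2 encodes the partner subunit of the transporter. For Cd74 the highest values were lower, namely 0.783 for Disp1, 0.771 for Ffar4 and 0.765 for Ldlrad3. The 20 points share the authors' scaling and fall into the 6 groups, so these values describe the samples and carry no p.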

How the data were processed

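RNA was sequenced as 75-base single-end reads in 2 runs, per the series' design text; the run of each sample is not given in the sources used here. The submitters' processing notes name Trim Galore, Salmon, DESeq2 and GRCm39; their versions and roles are not given in the sources used here. In the BMP table the deposited values are a signal, gene counts divided by 1 factor per sample and rounded by the authors to 3 significant digits. Whole reads were recovered from the steps of the values: of 180721 low values (20 reads or fewer), 100% were whole multiples of 1 read within 0.6 percent, and 21% of values above 0 exceed 999 reads and are known to 3 digits only. In the TGFb table the deposited values are TPM, read from column sums of 1000000. Columns left unmapped numbered 0.

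Tests used limma 3.58.1 in R 4.3.3 with an intensity trend on log2(value + 1), over genes with a mean of at least 10 (BMP table, all 20 samples in 1 fit) or at least 1 TPM (TGFb table). This left 7 and 8 of the 10 members. P-values were two-sided and adjusted by the Benjamini-Hochberg method across the whole table tested, with a threshold of 0.05. A log2 fold change on this scale understates the change of low genes. The design foresaw edgeR for raw counts. On recovered reads, edgeR 4.0.16 called 11106, 9667, 4199, 5039 and 0 genes with BMP2, BMP4, BMP5, BMP7 and BMP3, and DESeq2 1.42.0 was a further alternative. Intervals are limma's 95% intervals. The procedure was tested on simulated data in which few genes changed, evenly up and down, with no shift in totals. That simulation therefore does not bear on the choice of scaling for BMP2 and BMP4. Libraries carried no stated molecular identifiers, so a read number is not a number of molecules, and its error may exceed counting error.

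Same-numbered samples deviated together for BMP3, BMP4, BMP5 and BMP7 against control (correlations of 0.158 to 0.553 across genes) and for BMP5 against BMP7 (0.15 to 0.489), so replicate numbers from the titles were taken to pair these samples. For BMP2 against control the correlations ran from 0.018 to 0.421, beside -0.245 to 0.133 for samples of unlike number. The pair of replicate III, at 0.018, lay within that second range, so BMP2 samples were not taken as paired. In the TGFb table the correlations were 0.004 to 0.07, and the numbers were not taken to pair samples there either.

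The members, gene lists and comparisons were chosen with earlier results of these data known. Members are always named; of each other list at most 2 genes that rose and 2 that fell with the smallest adjusted p are named per comparison, with counts for the rest. The ratios and the H2-T3 ranges were added after values were seen. Some items are not reported here. The mesenchymal samples of the series were not used here.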

Additional observations from a re-analysis of the deposited data

Results flagged for a closer look

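In Ciita with BMP2, replicate III held 1.28 normalized counts, which is 1 read, while the other 3 samples were at 0. The rule flags any value above 0 beside 3 values of 0, so the flag says nothing of that sample. Of 20 groups of 4 samples examined, this was the 1 value flagged. The usual rate of about 1 in 20 by chance does not hold for counts this low.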

How the results depend on the processing

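Of 1300 values of 50 member effects under alternatives, 1261 kept direction and side of the threshold, 14 lost the call, 11 gained one and 14 changed direction. Effects of BMP3 against control and of BMP5 against BMP7 were not in this tally. Many alternatives left out a sample of a group outside the comparison, where the fold change cannot move, so the number kept was partly fixed in advance. The changes of direction were B2m with BMP2 at the same total (-0.10) and after quantile normalization (-0.17); H2-Ab1 with BMP2 at the same total (-0.11) and without BMP2 replicate II (-0.08); and, between BMP2 and BMP4, Tap1 without BMP4 replicate II (0.06) and Cd74 without BMP4 replicate VI (-0.35). With Tgfb they were B2m after upper-quartile scaling (-0.05) and without control replicate I (-0.03), Tap1 after upper-quartile scaling (-0.03), without control replicate I or II (-0.11 each) and without Tgfb replicate III (-0.19), and H2-Aa without control replicate I (-0.23) or Tgfb replicate III (-0.12). Over all single replicates left out, the ranges were -0.08 to 0.95 for H2-Ab1 with BMP2, -0.26 to 0.06 for Tap1 and -0.35 to 0.80 for Cd74 between BMP2 and BMP4, and, with Tgfb, -0.03 to 0.06 for B2m, -0.19 to 0.32 for Tap1 and -0.23 to 0.66 for H2-Aa. Apart from B2m with BMP2, these effects were not called; the cause was not tested.

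The number of class II members called with BMP4 was 1 by DESeq2 and 0 to 1 when single replicates were left out (1 without BMP2 replicate IV, BMP3 replicate IV or BMP4 replicate II). With the replicate block, class I calls with BMP5 were 5 and class II calls 1, and class II calls with Tgfb were 3 (Cd74, H2-Ab1 and H2-Eb1), although numbers did not pair those samples; the block changed no other count of members called. A filter at a mean of 50 left 1 class I call with BMP7, since Nlrc5 was no longer tested, and 0 class II calls among the 5 ligands. Without a filter, class II calls were 1 between BMP2 and BMP4 and 2 among the 5 ligands, both through Ciita. Over all genes, calls with BMP5 fell from 3884 to 2515 without BMP5 replicate III and 2532 without BMP5 replicate VI, calls with BMP3 were 1 by DESeq2, and calls between BMP5 and BMP7 were 23 by DESeq2. Depth limits the class II genes and Nlrc5, which rest on at most 91 reads per sample.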
